A study of Mus musculus with 8 samples.

Results

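The genes described here code for parts of the motile cilium and its core, the axoneme. They were taken from the deposited mouse table by symbol: every gene whose name begins with Dnah, Dnaic, Dnaaf, Cfap, Rsph, Tekt or Drc followed by a number or letter, plus Spag6, Spag16, Spag17 and Hydin. The rule used no measured value and found 66 members among 23481 genes. All 66 matched a single gene of the GENCODE M21 annotation of build mm10. The study sorted nuclei from the midbrain of 8-month-old mice labelled with the strain DatCreEed, and sequenced them as 3' single-nucleus RNA on the 10x platform. One group is labelled wt and the other PRC2 mutant, and each is 1 pool of 3 mice, 2 female and 1 male. The 8 deposited samples are 4 flow-cell lanes of each of these 2 libraries. Eed is a core subunit of Polycomb repressive complex 2 (PRC2), and the strain name points to Cre recombinase under the dopamine transporter gene, which is active in dopamine neurons. Which alleles the wt mice carried was not given in the sources used here. With 1 library per genotype no difference between genotypes has a replicate check, no test was made, and genotype cannot be told apart from anything else that differed between the pools.

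A motile cilium beats because dynein motors attached to its outer microtubule doublets slide those doublets past each other. The Dnah genes code for the heavy chains of these motors, Dnaic genes for intermediate chains and Dnaaf genes for factors that assemble dynein arms in the cytoplasm. Rsph genes code for radial spokes and Drc genes for the nexin-dynein regulatory complex that links doublets, while tektins lie along the doublet microtubules. Spag6, Spag16, Spag17 and Hydin code for proteins of the central pair apparatus at the middle of the axoneme. Cfap genes are a mixed group of cilia and flagella associated proteins. In the brain, motile cilia are carried by ependymal cells and by the choroid plexus. Midbrain neurons carry at most a single immotile primary cilium. PRC2 places the methyl mark on histone H3 lysine 27 that keeps many developmental genes silent.

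Nuclei were split by a dopamine score, the summed UMIs (unique molecular identifiers, counted transcript tags) of Th, Slc6a3, Slc18a2 and Ddc per 10000 UMIs. Dopamine nuclei had a score of 5 or more: 1320 in the wt library (39383984 UMIs in all, median 24257.5 per nucleus) and 2875 in the mutant library (68742978 UMIs, median 19023). Other nuclei were below 5: 452 wt (median 12471.5) and 1093 mutant (median 14650). This class is a range of a score and not a cell type. The median score of dopamine nuclei was 24.3 in wt and 13.7 in the mutant, and 78 wt and 223 mutant nuclei lay near the limit, at 4 to 6. A stricter class of nuclei with a score under 1 held 250 wt and 605 mutant nuclei. Levels are given as CPM, the UMIs of a gene scaled to a total of 1000000 UMIs in the class. A member was called higher or lower past 1.5-fold after adding 1 CPM to both levels, and only with at least 50 UMIs over both libraries. Ratio intervals are exact 95% intervals and cover counting error only.

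In dopamine nuclei all 6 checked targets, Hoxc4, Hoxc5, Hoxb3, Pax3, Pax6 and Onecut2, were higher in the mutant, a list chosen with results of these data known. Hoxc4 had 1 UMI in wt and 8107 in mutant dopamine nuclei. Eed itself stood at 21.4 CPM in wt and 41.3 CPM in mutant dopamine nuclei. A 3' tag does not read whether exons further upstream were deleted, so Eed checks nothing here. Astrocyte and oligodendrocyte markers differed most outside dopamine nuclei. In other nuclei 7 of 8 of each list were lower in the mutant, where 4.66% of all measured genes were lower. The list sums there were 578 and 316 CPM for astrocytes and 753 and 369 CPM for oligodendrocytes in wt and mutant. In dopamine nuclei the same sums were 284 and 330 CPM and 239 and 201 CPM. The astrocyte sum there was carried by Slc1a2 (208 and 278 CPM), whereas Aqp4 and Gfap were lower and the list's median log2 difference was -0.41. The part of these markers in the results below was not tested. The libraries shared 4 barcodes, and no doublet caller was run.

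The sequences just upstream of 4 members are shown because these genes hold the largest rise and the 2 largest falls, and because Dnah7a and Dnah7c are near-copies that did not move alike. Each is the 250 bases before the start of the gene in the RefSeq promoter table (build GRCm38.p6, the assembly behind mm10), read 5′ to 3′ on the gene's strand. Capitals mark 2 kinds of match, on either strand: the letters GTTNCC, read as GGNAAC on the other strand, called an RFX element here since RFX factors, which drive ciliary genes, read pairs of it, and the inverted repeat GTTGC, 1 to 4 bases, GCAAC. The repeat was chosen after the sequences were seen, and shares letters with an RFX element where its spacer begins with C or ends with G. Spag6 lies at chr2:18694032-18750413 on the plus strand, Spag16 at chr1:69826970-70725132 (plus), Dnah7a at chr1:53397006-53706784 (minus) and Dnah7c at chr1:46425592-46807476 (plus). The 4 windows, in that order, are chr2:18698772-18699021, chr1:69826720-69826969, chr1:53706785-53707034 and chr1:46425268-46425517. The RefSeq start of Spag6 lies 4990 bases inside the GENCODE gene, whose span also covers noncoding transcripts that begin further upstream.
Spag6: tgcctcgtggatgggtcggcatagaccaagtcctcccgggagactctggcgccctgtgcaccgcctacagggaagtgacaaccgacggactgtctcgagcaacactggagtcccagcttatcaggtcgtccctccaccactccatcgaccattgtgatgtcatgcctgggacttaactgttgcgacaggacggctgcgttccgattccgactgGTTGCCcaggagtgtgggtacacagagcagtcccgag
Spag16: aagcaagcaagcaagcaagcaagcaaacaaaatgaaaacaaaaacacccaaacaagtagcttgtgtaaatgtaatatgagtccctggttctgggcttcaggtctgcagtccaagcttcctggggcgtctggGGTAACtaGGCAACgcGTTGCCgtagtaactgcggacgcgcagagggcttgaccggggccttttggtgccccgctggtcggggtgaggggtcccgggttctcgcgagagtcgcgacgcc
Dnah7a: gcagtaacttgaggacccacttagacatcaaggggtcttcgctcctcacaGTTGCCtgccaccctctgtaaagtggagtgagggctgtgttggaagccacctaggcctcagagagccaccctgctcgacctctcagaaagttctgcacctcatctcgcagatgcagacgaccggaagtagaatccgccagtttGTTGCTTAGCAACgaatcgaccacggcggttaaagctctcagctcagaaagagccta
Dnah7c: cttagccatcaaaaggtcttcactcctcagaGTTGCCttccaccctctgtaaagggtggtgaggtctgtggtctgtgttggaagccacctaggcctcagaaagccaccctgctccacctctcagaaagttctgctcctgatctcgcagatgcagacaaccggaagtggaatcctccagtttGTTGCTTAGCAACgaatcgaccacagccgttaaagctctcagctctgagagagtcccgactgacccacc

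Spag16 carried 3 RFX elements within its window and Spag6 carried 1. Dnah7a and Dnah7c each carried 1 RFX element and the inverted repeat, and their windows were identical at 78.4% of aligned positions. Of the 55 members with an entry in the table, 72.7% held an RFX element in the full window of 300 bases (250 before the start and 50 after), against 46.7% of 15892 genes. The same letters were in 72.9% of 48 further axoneme genes and in 78% of 50 genes of the primary cilium and intraflagellar transport. All 10 lower members with an entry held one, as did 25 of 37 members that stayed within 1.5-fold. A strict form of the paired RFX site, GTTNCC, 1 to 3 bases, GGNAAC, was found in 0 of 55 members and in 0.849% of all genes. It was in 8.33% of the further axoneme genes and in 14% of the primary-cilium genes. Apart from the inverted repeat, whose letters resemble such a pair, looser forms were not searched. The count of the strict form thus does not show that paired sites were absent. The inverted repeat was found in 10 of 55 members (18.2%) and in 0.541% of all genes. Since it was chosen after member sequences were seen, these shares are no independent comparison. The similar copies Dnah7a, Dnah7b and Dnah7c are among the 10. The forkhead letters GTAAACA, read by factors such as Foxj1, were found in 7.27% of members and 2.96% of all genes. CG dinucleotides numbered 26 in the Spag6 window of 300 bases and 20 in that of Spag16, against a median of 12 over the members and 15 over all genes. These matches describe letters and are not binding sites, and draw nothing about the factors.

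In dopamine nuclei most measured members were not called, a block of large dynein and central-pair genes was lower in the mutant, and a single gene, Spag6, was higher by far more than any other member. Of the 66 members 58 had enough UMIs, and 8 (Cfap221, Cfap73, Dnaaf3, Rsph6a, Dnaaf1, Tekt3, Tekt4 and Cfap58) had fewer than 50. Lower in the mutant were 11 of 58, or 19.0%, where 3.63% of the 16324 genes measured were lower. Higher were 2 of 58, or 3.45%, where 4.29% of all genes were higher. The median log2 difference was -0.16 over the measured members and 0.03 over all measured genes. All members together summed to 738 CPM in wt and 552 CPM in mutant dopamine nuclei, 1.34-fold lower (interval 1.32 to 1.36). At the limit, Hydin (log2 -0.59) and Dnah14 (0.59) lay just inside, and Cfap61 and Rsph4a (both -0.58) just outside.

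**Figure D1:**
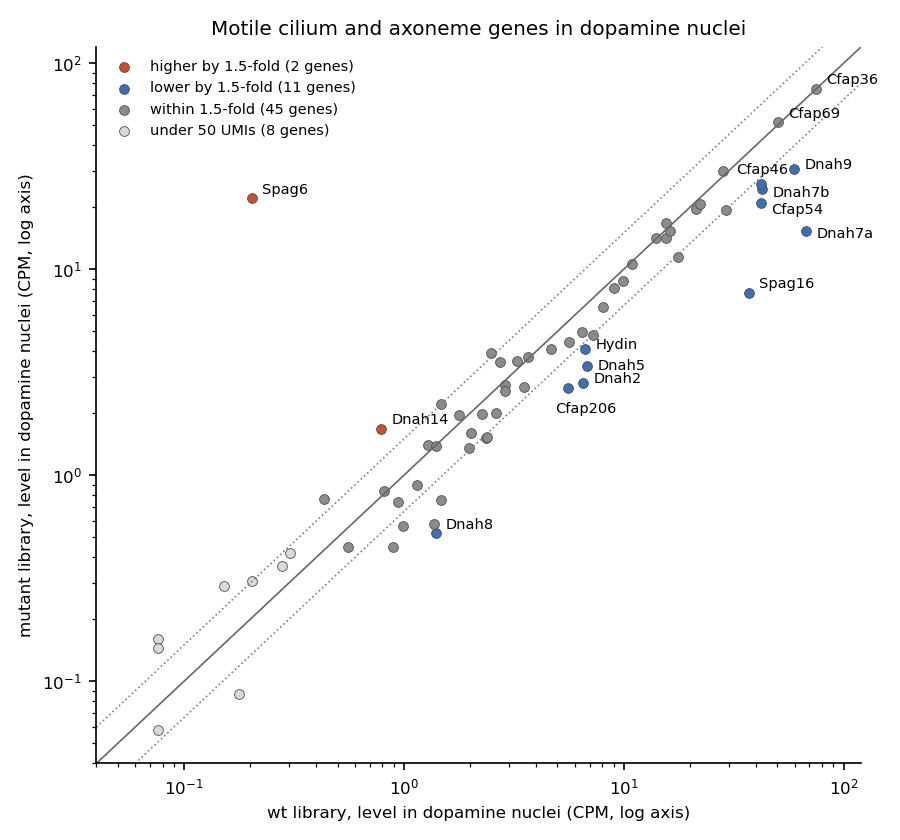
Level of each of the 66 members in dopamine nuclei of the wt library (horizontal, CPM, log axis) and of the mutant library (vertical, CPM, log axis), with 1 point per gene. The solid line marks equal levels and the dotted lines 1.5-fold without the added 1 CPM that the calls use. Colours mark the calls. Spag6 stands alone at 0.20 and 22.2 CPM, the 11 lower members (blue) include Spag16 and Dnah7a far below the line, and Cfap36 and Cfap69 lie on the line of equal levels.

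Spag6 codes for a central-pair protein of sperm tails and motile cilia. It was close to silent in wt dopamine nuclei, with 8 UMIs or 0.20 CPM (95% Poisson interval 0.088 to 0.40), each in a different nucleus. In mutant dopamine nuclei it had 1524 UMIs or 22.2 CPM (21.1 to 23.3), a ratio of 109 (interval 55.2 to 253). A tag was seen in 0.606% of wt and 31.9% of mutant dopamine nuclei. Thinned to 5000 UMIs per nucleus, with 60 wt and 90 mutant nuclei too shallow to keep, the shares were 0.0794% and 10.1%. Of the 916 mutant nuclei with a tag, 544 had exactly 1 UMI and the most was 8. The tags were thus spread thinly over many nuclei: were Spag6 present in proportion to depth in each nucleus, a tag would be seen in 37.3%, against the 31.9% found.

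The level of Spag6 was higher in the mutant in every range of the dopamine score, by the smallest ratio under 1. In the mutant it stood at 5.61 CPM in nuclei with a score under 1, at 19.5 CPM between 1 and 5, and at 21.0, 22.4 and 23.7 CPM in the ranges 5 to 10, 10 to 20, and 20 or more. In wt the same ranges gave 2.37, 0.26, 0, 0.43 and 0.15 CPM. Nuclei under 1 thus already held some Spag6 in wt, 8 UMIs, and the mutant level there was 2.36-fold higher (interval 1.12 to 5.73). Among these, nuclei with 2 or more UMIs per 10000 of Gad1, Gad2 and Slc32a1, which mark inhibitory neurons that release GABA, had 5.23 CPM in wt and 7.19 CPM in the mutant, a ratio of 1.38 (0.587 to 3.73). Oligodendrocyte-type nuclei, with 50 or more UMIs per 10000 of the oligodendrocyte list, had 0 Spag6 UMIs in 30 wt and 43 mutant nuclei, which are shallow at a median of 2795 UMIs in the mutant.

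Genes around Spag6 differed by smaller ratios. Bmi1, a subunit of Polycomb repressive complex 1, ends 7402 bases upstream on the same strand and stood at 5.94 CPM in wt and 11.4 CPM in mutant dopamine nuclei, a ratio of 1.92 (1.66 to 2.23). Commd3, next upstream of Bmi1, stood at 13.3 and 13.7 CPM. Pip4k2a, a lipid kinase gene downstream on the opposite strand, stood at 53.5 and 66.3 CPM. In nuclei with a score under 1, Bmi1 stood at 8.31 and 7.06 CPM. Spag6l, the related gene on another chromosome, is a separate transcript whose last 500 bases are only 54.5% identical to those of Spag6. Spag6l was expressed in both libraries, at 29.1 and 24.4 CPM in dopamine nuclei, and did not share the rise.

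Spag16 codes for a central-pair protein and spans 898 kb. It stood at 37.2 CPM (1464 UMIs, interval 35.3 to 39.1) in wt and at 7.71 CPM (530 UMIs, 7.07 to 8.40) in mutant dopamine nuclei, 4.82-fold lower (4.36 to 5.34), the largest fall by ratio among the measured members. Spag16 was lower in the mutant at every dopamine score. In nuclei under 1 it stood at 39.8 and 11.4 CPM, 3.48-fold lower (2.70 to 4.50), and in the GABA nuclei among these at 34.3 and 10.3 CPM, 3.34-fold lower. Astrocyte and oligodendrocyte markers were lower in the mutant in the same nuclei under 5, as given above, and their part was not tested.

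Spag16 tags were concentrated in few nuclei. In wt a tag was seen in 29.5% of dopamine nuclei, where an even spread by depth would give 58.6%, and the top 5% of nuclei (66 of 1320) held 53.6% of its UMIs. The most in a single nucleus was 37. Cfap69, by contrast, was seen in 64.5% of wt dopamine nuclei against 67.3% for an even spread, with 22.4% of its UMIs in the top 5%. In the mutant the share with a Spag16 tag was 10.9%, against 16.1% for an even spread. Among the named members the gap between the observed share and an even one was widest for Spag16 in wt.

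**Figure D2:**
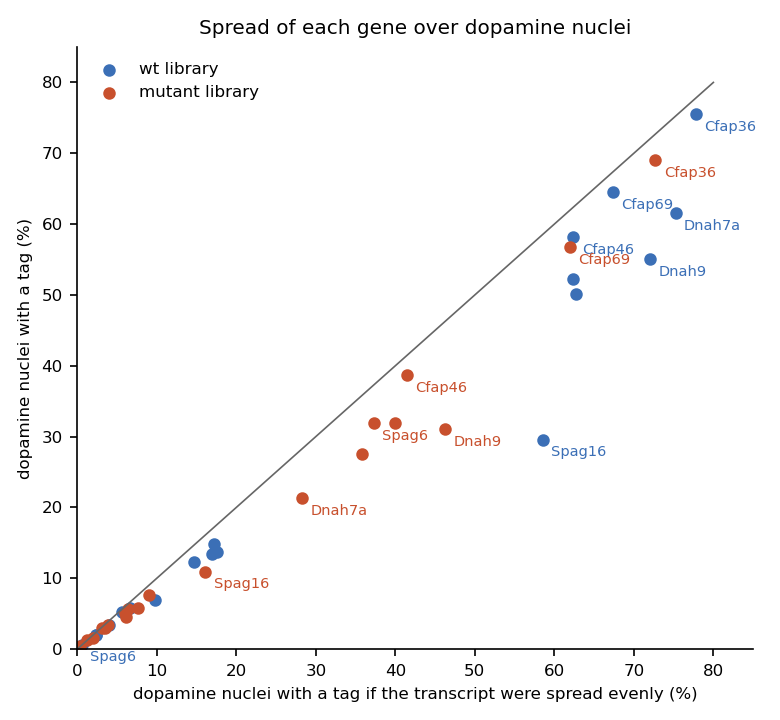
Share of dopamine nuclei with at least 1 tag of each named member (vertical, percent) against the share if its UMIs were spread in proportion to depth (horizontal, percent), with blue points for the wt and orange for the mutant library. Cfap36 and Cfap69 lie near the line of equality. Spag16 in wt lies far below it, at 29.5% observed and 58.6% for an even spread, and Dnah9 in both libraries lies below it to a lesser degree.

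The nearest genes downstream of Spag16 were also lower in mutant dopamine nuclei. Vwc2l, which codes for a secreted protein with von Willebrand C domains, begins 582 bases downstream on the same strand and stood at 702 and 359 CPM. Bard1, the partner of Brca1, lies further downstream on the opposite strand and stood at 12.4 and 4.31 CPM, 0.346 of the wt level (0.299 to 0.401). Ikzf2, upstream on the opposite strand, stood at 56.7 and 48.9 CPM. Outside dopamine nuclei the downstream genes did not follow Spag16: under a score of 1, Vwc2l stood at 200 and 227 CPM and Bard1 at 3.86 and 3.09 CPM. Among wt dopamine nuclei Bard1 stood at 10.3, 13.5 and 20.7 CPM in nuclei with 0, 1 to 4 and 5 or more Spag16 UMIs, and Vwc2l at 621, 781 and 929 CPM. These groups differ in depth, with medians of 21954, 30738 and 47742 UMIs, and Dnah9 stood at 60.4, 59.9 and 55.8 CPM over them. The mutant groups (2561, 299 and 15 nuclei) did not show this order: Vwc2l stood at 365, 331 and 273 CPM and Bard1 at 4.44, 3.48 and 4.70 CPM, the last on 4 UMIs. Dnah9 there stood at 28.5, 40.3 and 67.0 CPM. The part of depth in these orders was not tested.

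Spag17 and Hydin complete the 4 central-pair genes that were taken by their own names. Cfap54, treated below, is also tied to the central pair. Hydin spans 343 kb and stood at 6.65 CPM in wt and 4.09 CPM in mutant dopamine nuclei, 1.63-fold lower (1.37 to 1.93), and at 14.8 and 6.67 CPM in nuclei under 1. Spag17 was low in dopamine nuclei, at 1.98 and 1.35 CPM, and stayed within 1.5-fold. In other nuclei Spag17 was called lower, at 6.01 and 3.13 CPM, 1.92-fold (1.27 to 2.88). In nuclei with a score under 1 it stood at 7.42 and 1.84 CPM on 25 and 19 UMIs, below the minimum for a call. Of these 4 genes, Spag6 was thus the only one higher in the mutant.

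Dynein heavy chains were the family with the most lower members. All 15 Dnah genes were measured in dopamine nuclei. Lower were 6, or 40% (Dnah7a, Dnah7b, Dnah9, Dnah2, Dnah5 and Dnah8), where 3.63% of all genes were lower. Higher was 1, or 6.67% (Dnah14), where 4.29% of all genes were higher, and 8 were not called. Their sum was 213 CPM in wt and 104 CPM in the mutant, 2.04-fold lower (1.98 to 2.10). Most of these UMIs came from Dnah7a, Dnah9 and Dnah7b. Dnah1, Dnah3, Dnah6, Dnah10, Dnah12, Dnah17, Dnah7c and Dnah11 lay between 0.760 and 1.58 of the wt level. Dnah11, the highest of them, stood at 2.49 and 3.94 CPM, and missed the call because 1 CPM is added to both levels.

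Dnah7a codes for an inner-arm heavy chain and stood at 67.5 CPM (64.9 to 70.1) in wt and 15.3 CPM (14.4 to 16.2) in mutant dopamine nuclei, 4.42-fold lower (4.11 to 4.75). It was seen in 61.5% of wt and 21.3% of mutant dopamine nuclei, and in 26.2% and 7.0% after thinning to 5000 UMIs. In nuclei under a score of 1 it stood at 33.8 and 19.6 CPM, 1.72-fold lower, and in the GABA nuclei among these at 16.4 and 14.4 CPM, with an interval of 0.526 to 1.51 for the ratio. The ratio for Dnah7a was thus furthest from 1 in dopamine nuclei. Of its neighbours in dopamine nuclei, Hecw2 stood at 561 and 563 CPM and Osgepl1 at 16.5 and 16.3 CPM. Stk17b, nearer and scarce at 22 and 69 UMIs, stood at 0.56 and 1.00 CPM, a ratio of 1.80 (1.10 to 3.05).

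Mouse chromosome 1 carries 3 similar copies of this gene, and their values differed. Dnah7b (chr1:46066315-46373546, plus strand) stood at 42.8 and 24.6 CPM in dopamine nuclei, 1.74-fold lower. Dnah7c stood at 9.01 and 8.15 CPM there, within 1.5-fold. In nuclei under a score of 1, Dnah7c was higher in the mutant, at 4.45 and 14.7 CPM on 15 and 152 UMIs, while Dnah7b stood at 59.3 and 52.1 CPM. The last 500 transcript bases of the copies are 94.5% to 96.4% identical, so how reads were split between them is uncertain, and the values of Dnah7a, Dnah7b and Dnah7c carry that doubt.

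Dnah9 codes for an outer-arm heavy chain and stood at 59.7 CPM in wt and 30.7 CPM in mutant dopamine nuclei, 1.94-fold lower (1.83 to 2.06). In nuclei under a score of 1 the levels were 52.8 and 51.0 CPM, with a ratio of 0.965 (0.813 to 1.15). Zkscan6, which starts 2042 bases away on the opposite strand, stood at 9.42 and 9.08 CPM in dopamine nuclei. The remaining lower dyneins were scarcer. Dnah5 (outer arm) stood at 6.83 and 3.40 CPM, Dnah2 (inner arm) at 6.55 and 2.79 CPM, and Dnah8 (outer arm) at 1.40 and 0.52 CPM on 55 and 36 UMIs.

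The higher dynein, Dnah14, had 31 and 116 UMIs in dopamine nuclei, 0.79 and 1.69 CPM, a ratio of 2.14 (1.43 to 3.30). Dnah14 lost its call with a pseudocount of 5 CPM and at a 2-fold limit, while Spag6 kept its own under both. The level of Dnah14 outside the class was several times that inside it in wt, 4.33 CPM in other nuclei, where the mutant had 4.78 CPM. Dnah14, Dnah6, Dnah12, Cfap45 and Cfap73 had the largest shares of their level outside dopamine nuclei, from 77.3% (Cfap45) to 82.5% (Cfap73, on few UMIs). Dnah12 in other nuclei stood at 15.8 CPM in wt and 7.50 CPM in the mutant, and Dnah6 at 4.05 and 2.00 CPM. Astrocyte and oligodendrocyte markers were also lower in these other nuclei, and their part in these falls was not tested. Oligodendrocyte-type nuclei, which are shallow, held a Dnah12 tag in 0 of 30 wt and 1 of 43 mutant nuclei. Dnah6 had a tag in 0 of either.

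Among the Cfap genes 3 of 23 measured (13.0%) were lower in dopamine nuclei, where 3.63% of all genes were lower. None was higher, where 4.29% of all genes were. Cfap54, a long gene tied to the central pair, stood at 42.2 and 20.9 CPM, 2.02-fold lower (1.88 to 2.17). Cfap46 stood at 42.3 and 26.0 CPM, 1.63-fold lower (1.52 to 1.74), and Cfap206, a radial-spoke adaptor, at 5.56 and 2.65 CPM, 2.10-fold lower. Outside the class they parted: under a score of 1, Cfap54 stood at 49.3 and 46.1 CPM, with a ratio of 0.937 (0.783 to 1.12), while Cfap46 stood at 71.5 and 44.0 CPM, 1.63-fold lower. Other abundant Cfap genes were not all alike. Cfap36 stood at 74.9 and 75.4 CPM in dopamine nuclei, a ratio of 1.01 (0.962 to 1.05). Cfap69 stood at 50.2 and 51.9 CPM (0.978 to 1.09 for the ratio) and Cfap20 at 28.3 and 30.1 CPM. Cfap44 stood at 29.3 and 19.5 CPM, a ratio of 0.665 (0.615 to 0.720), just short of a call.

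Radial spokes, tektins, the regulatory complex, the Dnaic genes and the assembly factors gave no call in dopamine nuclei. Measured were 7 Rsph, 3 Tekt, 3 Drc and 2 Dnaic genes and, of the assembly factors, Dnaaf5 alone. The Rsph genes summed to 70.5 CPM in wt and 66.9 CPM in the mutant, a ratio of 0.948 (0.905 to 0.994), and the Drc genes to 21.8 and 20.1 CPM, 0.922 (0.846 to 1.00). The Tekt genes summed to 4.49 and 4.51 CPM, and Dnaaf5 stood at 16.3 and 15.4 CPM. The Dnaic sum, at 8.13 and 5.27 CPM, had the lowest ratio of these families, 0.648 (0.556 to 0.756). Several scarce genes here had ratios past 1.5-fold and missed the call because 1 CPM is added to both levels. Rsph4a, a spoke-head protein, stood at 1.37 and 0.58 CPM, 2.36-fold lower (1.54 to 3.64), and was called lower when nuclei under 5000 UMIs were left out. Dnaic2 stood at 0.89 and 0.45 CPM and Tekt1 at 1.47 and 0.76 CPM, while Tekt5 was at 1.47 and 2.21 CPM. Dnaic1 stood at 7.24 and 4.82 CPM, a ratio of 0.665 (0.566 to 0.782). Rsph3a and Rsph3b are 99.4% identical over their last 500 transcript bases and cannot be told apart with confidence.

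**Figure D3:**
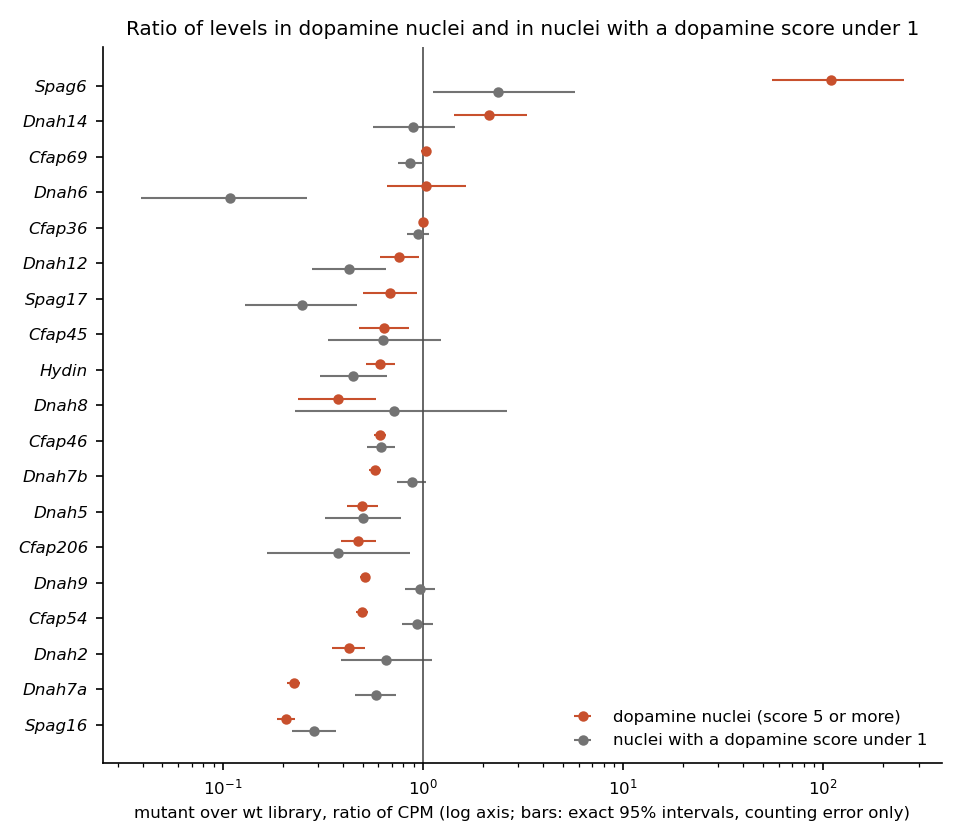
Ratio of the mutant to the wt level (log axis) for the named members measured in dopamine nuclei, with orange points for dopamine nuclei and grey points for nuclei with a dopamine score under 1. Bars are exact 95% intervals of counting error. Spag16 lies to the left in both classes, whereas Dnah9 and Cfap54 lie near 0.5 in dopamine nuclei and near 1 in the others.

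Outside dopamine nuclei the members as a whole were also lower in the mutant. In other nuclei 49 members were measured, of which 11 were lower (background 4.66%) and 2, Spag6 and Dnah7c, were higher (background 3.05%). All 66 summed to 975 CPM in wt and 790 CPM in the mutant, a ratio of 0.810 (0.788 to 0.834). Under a score of 1, 36 were measured, with 11 lower (background 5.39%) and 2 higher (background 3.98%), and sums of 910 and 704 CPM. The astrocyte and oligodendrocyte sums were further apart than this in the same other nuclei, as given above, and their part was not tested.

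Ependymal cells are the usual source of these transcripts in brain. Nuclei with 3 or more UMIs of ependymal markers, counted without Vit and Ak7, numbered 2 among wt and 2 among mutant dopamine nuclei, and 5 of 452 and 4 of 1093 among other nuclei. At 1 UMI or more they numbered 89 and 124 among dopamine nuclei, with 10.9% and 7.60% of the member UMIs of their class, and 29 and 76 among other nuclei, with 20% and 13.7%. Of the strict nuclei, the 5 wt held 5.62% of all member UMIs of the wt other nuclei, and the 4 mutant 2.76%. Foxj1, the master regulator of motile cilia, had 9 and 21 UMIs in wt and mutant dopamine nuclei, and Sntn, a protein of the ciliary tip, had 1 and 0. Of the 12 ependymal markers, Vit (41.8 and 28.3 CPM) and Ak7 (4.93 and 1.96 CPM) made up most of the list's sum of 49.5 and 32.3 CPM in dopamine nuclei. Without the ependymal-type nuclei 10 of the 11 lower members kept their call, Dnah14 lost its own, and the sum ratio in dopamine nuclei stayed within its interval.

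The members' sum was lower in the mutant in both dopamine subtype groups compared. Sox6, Aldh1a1 and Ndnf mark dopamine neurons typical of the ventral substantia nigra. In dopamine nuclei with 5 or more UMIs per 10000 of these markers (606 wt, 1195 mutant) the members summed to 654 and 470 CPM, and in those under 1 (417 wt, 904 mutant) to 873 and 672 CPM. Dnah9 stood at 37.1 and 13.2 CPM in the first and at 99.4 and 59.1 CPM in the second, and Spag16 at 37.9 and 6.35 CPM and at 29.3 and 9.20 CPM. Spag6 stood at 20.1 and 25.9 CPM in the mutant nuclei of these subtypes. Subtype shares were close overall: 45.9% of wt and 41.6% of mutant dopamine nuclei were in the high group.

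**Figure D4:**
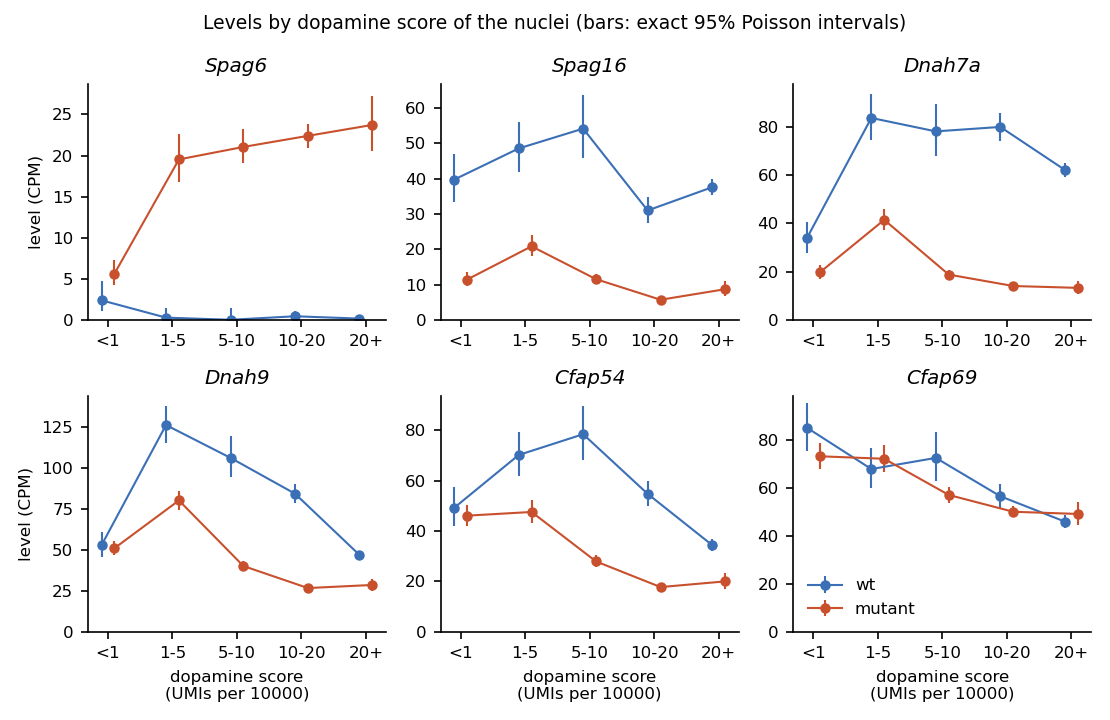
Level (CPM) of 6 members in 5 ranges of the dopamine score, for the wt (blue) and mutant (orange) library, with exact 95% Poisson intervals that cover counting error only. Spag6 is higher in the mutant in all 5 ranges, least so under a score of 1, and Spag16 is lower in the mutant in all 5 ranges. Dnah9 and Cfap54 meet wt only under a score of 1, and Cfap69 runs closer to wt, at 57.1 CPM against 72.5 CPM in wt in the range 5 to 10.

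Within the mutant library the falls were deepest in the nuclei with most tags of Polycomb targets. Mutant dopamine nuclei were split by their UMIs of Hoxc4, Hoxc5, Hoxb3 and Pax3, genes near silent in wt: 806 had 0, 639 had 1 to 4 and 1430 had 5 or more. All members together summed to 745 CPM (729 to 761), 624 CPM (610 to 638) and 487 CPM (481 to 494) in these groups, against 738 CPM in wt. Dnah9 stood at 66.7, 45.0 and 18.5 CPM, where wt had 59.7 CPM. Cfap54 stood at 43.1, 24.0 and 14.8 CPM, where wt had 42.2 CPM. Dnah9 and Cfap54 in nuclei without such tags were thus at or above the level of all wt dopamine nuclei. This comparison was not matched for subtype. Of these mutant nuclei 24.1% were in the high Sox6, Aldh1a1 and Ndnf group, against 45.9% of wt dopamine nuclei. In wt, Dnah9 was lower in that group than in the low one, as given above. Whether either gene reached the wt level within a subtype was not tested.

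Spag16 and Dnah7a did not return to the wt level in the nuclei without tags. Spag16 stood at 15.2, 7.89 and 5.86 CPM in nuclei with 0, 1 to 4, and 5 or more tags, where wt had 37.2 CPM. Dnah7a stood at 28.1, 20.5 and 10.9 CPM, where wt had 67.5 CPM. Spag6 stood at 22.1, 28.1 and 20.7 CPM, highest in the middle group and far above wt in each. The groups differ in depth, with medians of 12041.5, 15242 and 26705 UMIs, and in subtype, with 24.1%, 33.0% and 55.2% of nuclei in the high Sox6, Aldh1a1 and Ndnf group. Among nuclei of 10000 or more UMIs the member sum was 742 CPM at 0 tags and 489 CPM at 5 or more. Among nuclei of the high subtype group with 0 tags, the sum was 647 CPM in the mutant and 654 CPM in wt, and in the low group it was 783 and 873 CPM.

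**Figure D5:**
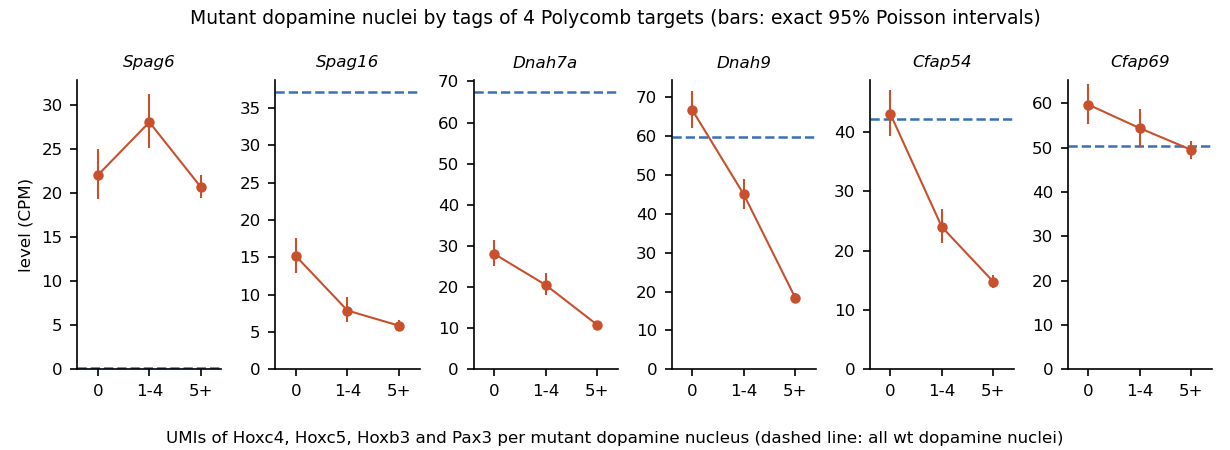
Level (CPM) of 6 members in mutant dopamine nuclei with 0, 1 to 4, and 5 or more UMIs of Hoxc4, Hoxc5, Hoxb3 and Pax3, with exact 95% Poisson intervals, and the level in all wt dopamine nuclei as a dashed line. Dnah9 and Cfap54 fall from about the wt level to far below it, Spag16 and Dnah7a lie below wt in all 3 groups, and Spag6 lies far above wt in all 3.

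Lower members were mostly long genes. The median span of the 11 lower members was 306 kb and that of the remaining measured members 44.3 kb. Of the 14 measured members that span 200 kb or more, 8 were lower, where 7.13% of all measured genes of that span were lower. Of the 10 members under 25 kb none was called lower, where 2.68% of all such genes were. Scarce members were hard to call because of the added 1 CPM. Without it, Rsph4a, Tekt1 and Cfap161 of these 10 had ratios of 0.424, 0.514 and 0.573, and the others stayed within 1.5-fold. By wt level, 1 of 17 measured members under 2 CPM was lower, 4 of 23 at 2 to 10 CPM, and 6 of 18 at 10 to 100 CPM. Over all measured genes 2.17%, 6.23% and 2.93% were lower in these ranges. The part of level in the order by span was not tested. Across the 58 members the log2 difference and the log10 span had a Pearson correlation of -0.29 and a Spearman correlation of -0.36, given as a description since the genes share the same libraries. Longer genes also hold more intronic sequence from which a nuclear tag can come.

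Further axoneme genes outside the name rule gave lower members and no higher one. Of 62 further axoneme genes in the table, 51 were measured in dopamine nuclei, with 6 lower (11.8%, against 3.63% of all genes) and none higher (4.29% of all genes). These were Ak7 (4.93 and 1.96 CPM), an adenylate kinase of cilia, Armc3 (6.30 and 2.68 CPM), Ccdc146 (2.54 and 1.18 CPM), Zbbx (9.39 and 5.32 CPM), Armc4 (4.57 and 2.60 CPM), an outer-arm docking factor, and Efhc2 (21.6 and 13.7 CPM), a doublet microtubule protein. The list summed to 753 and 654 CPM. Genes of the primary cilium and intraflagellar transport, the cargo system that builds all cilia, were level: none of 56 measured passed 1.5-fold in dopamine nuclei. Their sum was 3181 CPM in wt and 3167 CPM in the mutant, a ratio of 0.996 (0.989 to 1.00).

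Of 16 measured regulators of multiciliation, 1 was higher (6.25%, against 4.29% of all genes) and 2 were lower (12.5%, against 3.63%) in mutant dopamine nuclei, and their median log2 difference was 0.00. Trp73, a p53 relative that promotes the multiciliated fate, stood at 1.68 and 4.83 CPM, a ratio of 2.88 (2.21 to 3.81), and at 0.70 and 3.29 CPM in other nuclei. Deup1, which builds the deuterosomes that multiply basal bodies, stood at 7.80 and 3.33 CPM, 2.34-fold lower, and Rfx4 at 6.96 and 4.29 CPM. Mcidas and Gmnc, which act at the top of the multiciliation programme, were scarce and went uncalled, Mcidas at 0.51 and 1.12 CPM and Gmnc at 1.98 and 1.02 CPM. Rfx3, a factor of ciliary genes in many tissues, was expressed throughout, at 151 and 167 CPM.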

How the data were processed

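The deposited values are unnormalised UMI counts, with genes as rows and nuclei as columns of 1 table. Cell Ranger 3.1.0 and build mm10 are named in the submitters' processing notes without roles, and filters on nuclei and genes were not given in the sources used here. Lanes of a library are pooled in the table. The library of each nucleus was read from its column name.

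Counts were summed per library and class of nuclei, scaled to CPM and compared as ratios with exact binomial-split intervals, with Python 3.11.15, numpy 2.4.6, scipy 1.17.1, pandas 2.3.3 and matplotlib 3.10.9. All genes went through the same rule, which gave the background shares. In simulated counts with known folds, 85.1% of genes lowered 2-fold, 90% of those raised 2-fold and 0 of 16102 unaltered genes were called, and 95.6% of intervals held the true ratio. These counts varied by counting error alone, without differences between pools, mice or nuclei. They therefore give no rate of false calls for the real libraries. Named members were those called (at most 12 each way), the 8 with the highest wt level, the 4 single-named genes and the 5 with the largest share outside dopamine nuclei. The members, lists and markers were chosen with earlier results of these data known. Nuclei ranged from 673 to 121160 UMIs in wt and from 621 to 127151 in the mutant. Of the members 23 overlap another gene, and reads on those stretches were not resolved here. Promoter windows come from RefSeq (GRCm38.p6).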

Additional observations from a re-analysis of the deposited data

Results flagged for a closer look

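Dnah11, an outer-arm dynein heavy chain, went opposite ways in the 2 classes of nuclei. The ratio of mutant to wt was 1.58 (interval 1.25 to 2.02) in dopamine nuclei, from 2.49 and 3.94 CPM, and 0.588 (0.428 to 0.815) in other nuclei, from 9.08 and 5.34 CPM. The difference between the classes was not tested, since each genotype is 1 library. Astrocyte and oligodendrocyte markers were lower in the same mutant other nuclei, and their part was not tested.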

How the results depend on the processing

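No paired analysis was possible because lanes with the same number are not kept apart in the table and each genotype is 1 library, and leaving out a replicate was not possible for the same reason.

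The 2 higher members became 1 with a pseudocount of 5 CPM, a minimum of 20 UMIs in wt, a 2-fold limit, a class limit of 10, without nuclei under 5000 UMIs, without the 5% deepest nuclei, with the mean of nuclei, without the Dnah7 and Rsph3 copies and Spag6, without nuclei carrying tags of 37 other-cell-type markers, and without ependymal-type nuclei. The gene left was Spag6, except under the minimum of 20 UMIs in wt and the setting without Spag6, which left Dnah14. Without the copies alone both stayed. The count was 3 in the low Sox6, Aldh1a1 and Ndnf group (Spag6, Cfap100, Dnah11) and without Hox or Pax3 tags (Spag6, Cfap100, Cfap70), and stayed at 2 with Dnah14 replaced at a score of 10 to 20 (Dnah17) and in the high group (Tekt5). The 11 lower members became 6 with a pseudocount of 5 CPM, 2 at 2-fold (Spag16 and Dnah7a), 20 at a score of 10 to 20, and 5 when mutant nuclei with Hox or Pax3 tags were left out. The sum ratio in dopamine nuclei, 0.748, was 0.768 at a class limit of 2, 0.732 as the mean of nuclei, 0.765 without the copies and Spag6, 0.803 without the copies alone, 0.616 at a score of 10 to 20, 0.719 and 0.770 in the high and low Sox6, Aldh1a1 and Ndnf groups, and 1.01, reversed, without nuclei carrying Hox or Pax3 tags. In other nuclei the ratio, 0.810, was 0.704 and 0.776 at class limits of 10 and 2, 0.840 without nuclei under 5000 UMIs, 0.735 as the mean of nuclei, 0.835 without ependymal-type nuclei and 0.773 under a score of 1. A filter on all 51 other-cell-type markers left out 93.4% of nuclei, gave 0.723 and 0.874, and called 2 members higher, 1 of them Rsph3b. Reversed genes were Dnah8 (1.35 under that filter), Dnah14 (0.980 at a score of 10 to 20), and Cfap54 (1.02) and Dnah9 (1.12) without Hox or Pax3 tags. The setting without Hox or Pax3 tags compared the remaining mutant nuclei with all wt dopamine nuclei. Of these, 24.1% in the mutant and 45.9% in wt were in the high Sox6, Aldh1a1 and Ndnf group, so the mixtures were unlike. The causes were not tested. Alternatives on score ranges, subtypes, Hox or Pax3 tags, the 37 markers, the copies alone and ependymal-type nuclei were chosen after seeing the data. Depth limits members under 1 CPM: 1 UMI is 0.0254 CPM in wt and 0.0145 CPM in mutant dopamine nuclei.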
